A study of Rattus norvegicus with 12 samples.

Results

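Caspases are proteases that are made as inactive precursors and, once activated, cut other proteins after aspartate residues. The inflammatory caspases (Casp1, Casp4 and Casp12 here) belong to innate immunity: Casp1 and Casp4 drive cytokine release and a lytic form of cell death, pyroptosis. The apoptotic caspases (Casp2, Casp6, Casp8 and Casp9 here) start or carry out programmed death, which in liver is a main route by which hepatocytes are lost in fatty liver disease. These 7 genes were followed in rat liver, out of 18166 genes that the array annotation names by a single symbol. Where a gene had several transcript clusters, its cluster was chosen by the highest mean log2 signal over the 12 arrays. Each of the 7 genes had only 1 cluster, so that this signal decided nothing, but the set itself was put together with diet differences of these data known.

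Total RNA came from liver of 12 male obese Zucker rats, which are homozygous for the fa allele of the leptin receptor gene. That genotype is shared by both groups, there were no lean rats, and every value below is set within this obese background. Of these rats, 6 ate a control diet without supplement and 6 a diet with 5% PSC, the labels' name for the mushroom product, balanced for energy and crude nutrients. The diets began at an age of 5 to 6 weeks and lasted 4 weeks, and the rats were killed on day 29. Each array (Affymetrix Rat Gene 2.0 ST) holds RNA of 1 rat. Each feeding group held 12 rats, of which 6 were profiled. The rats were housed 2 to a cage, and cages are not named in the labels. The tests treat rats as independent, and cage could not be a term in them.

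Array medians lay between 4.71 and 4.85 on the log2 scale, and arrays correlated at 0.986 to 0.994 across clusters. On the first principal component over all genes (27.2% of the variance) PSC replicate 4, at -1.57, lay nearest to the controls, which ranged from -18.7 to -4.34, and the other PSC arrays lay at 6.68 or above. On the second (16.2%) PSC replicates 2 and 5 stood highest, at 21.2 and 11.7. Hepatocyte markers were present, with Alb (albumin) at a mean of 13.16 and Ttr (transthyretin) at 12.59 in controls, and 0 of 9 measured hepatocyte markers differed between diets (limma, adjusted p of 0.05 or above, with 1 of them higher at unadjusted p below 0.05). In such whole-tissue RNA, fewer cells of a type and less RNA per cell cannot be told apart. Signals are log2 values after RMA, and levels of different genes are not set against each other because their probes differ.

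Of the 7 caspase genes 2 were lower in the liver of PSC-fed rats, and both were inflammatory caspases. Casp12 fell 2.59-fold and Casp4 1.28-fold, whereas Casp1 and the 4 apoptotic caspases did not pass the test (limma, Benjamini-Hochberg adjusted p below 0.05 over all genes, n = 6 per diet). Over all 18166 genes, 1.89% were called lower and 0.716% higher. The same 2 members were also those without overlap between the diets, which held for 1.48% of all genes in the lower and 0.710% in the higher direction.

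**Figure D1:**
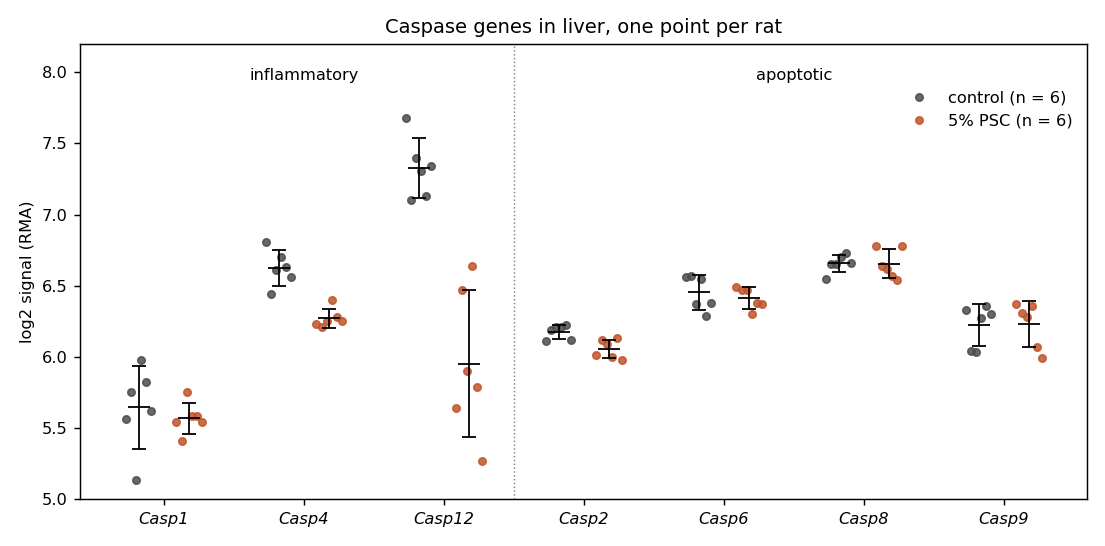
Log2 signal (vertical axis, RMA) of each caspase gene in every rat; points are rats (grey, control; orange, 5% PSC), and bars give the mean ± SD of 6 rats. Casp12 and Casp4 separate the diets completely, and in the other 5 genes the diets overlap.

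Casp12 encodes a caspase that is found at the endoplasmic reticulum and that has been tied in rodents both to death under endoplasmic reticulum stress and to damping of the inflammasome. In controls its log2 signal ran from 7.10 over a median of 7.33 to 7.68. In PSC-fed rats it ran from 5.27 over a median of 5.85 to 6.64. The highest PSC array, replicate 4, was still 0.46 below the lowest control, replicate 2. The means were 7.33 ± 0.21 and 5.95 ± 0.52 (SD, n = 6). PSC minus control was -1.38 (SE 0.19, 95% interval -1.79 to -0.97, adjusted p = 0.0041, limma). The SD among PSC-fed rats was at percentile 99.5 of all genes in that diet and that among controls at percentile 86.0, a difference in spread that was not tested. Replicates 4 and 2 of the PSC diet, at 6.64 and 6.47, stood above the other 4, which lay between 5.27 and 5.90.

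Casp4, which RefSeq also lists as Casp11, encodes the sensor caspase of bacterial lipopolysaccharide in the cytosol, which cleaves gasdermin D. Its log2 signal ran from 6.44 over a median of 6.62 to 6.81 in controls and from 6.21 over 6.25 to 6.40 in PSC-fed rats. The gap between the diets was small, 0.04 between control replicate 2 and PSC replicate 4. The means were 6.62 ± 0.13 and 6.27 ± 0.07 (SD, n = 6), and PSC minus control was -0.36 (SE 0.07, 95% interval -0.49 to -0.22, adjusted p = 0.0139, limma). Without any 1 of the 12 arrays the adjusted p of Casp4 stayed between 0.00698 and 0.0378, and that of Casp12 between 0.00071 and 0.0153. Without PSC replicates 2 and 5 together, Casp4 had -0.34 (adjusted p = 0.0495) and Casp12 -1.46 (adjusted p = 0.0179, limma).

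Casp1 encodes the protease that matures interleukin-1 beta and interleukin-18 in the inflammasome. Its controls spread from 5.13 over a median of 5.69 to 5.98, and all PSC values, from 5.41 over 5.56 to 5.75, lay inside that range. The log2 fold change was -0.08 (SE 0.11, 95% interval -0.32 to 0.17, adjusted p = 0.747, limma). Its SD of 0.29 with the control diet and 0.11 with PSC had the reverse order of Casp12 and was not tested either.

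None of the 4 apoptotic caspases passed the test, and 1 of them, Casp2, had an unadjusted p below 0.05, as did 19.1% of all genes. Casp2 encodes the initiator caspase of the PIDDosome, a complex that answers to DNA damage and surplus centrosomes. It ran from 6.11 over 6.20 to 6.22 in controls and from 5.98 over 6.05 to 6.13 in PSC-fed rats, with all 6 PSC arrays below the control mean and 4 below every control. Its log2 fold change was -0.12 (SE 0.05, 95% interval -0.23 to -0.01, unadjusted p = 0.0338, adjusted p = 0.22, limma). With quantile normalization repeated it was -0.0651 (SE 0.0562, adjusted p = 0.5997, limma). Casp2 was also among the genes with the least spread between rats, at percentile 1.88 of within-diet SD.

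Casp6 encodes an executioner-type caspase that cuts lamin A. Its values ran from 6.29 over 6.47 to 6.57 in controls and from 6.30 over 6.43 to 6.49 in PSC-fed rats, with a log2 fold change of -0.04 (95% interval -0.18 to 0.10, adjusted p = 0.772, limma). Casp8, the initiator at death receptors, ran from 6.55 over 6.66 to 6.73 and from 6.54 over 6.63 to 6.78. Its difference was -0.0017 (95% interval -0.13 to 0.13, adjusted p = 0.99, limma), and PSC replicates 1 and 6, both at 6.78, were above every control. Casp9, activated on the apoptosome by cytochrome c, ran from 6.03 over 6.29 to 6.36 and from 5.99 over 6.30 to 6.37, with a difference of 0.01 (95% interval -0.17 to 0.19, adjusted p = 0.969, limma). The signs for Casp6 and Casp8 turned to higher with another quantile normalization and with cyclic loess, and that of Casp8 also with median centring. These intervals contain 0 and leave room for shifts of the size stated, so that they do not show equal levels.

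**Figure D2:**
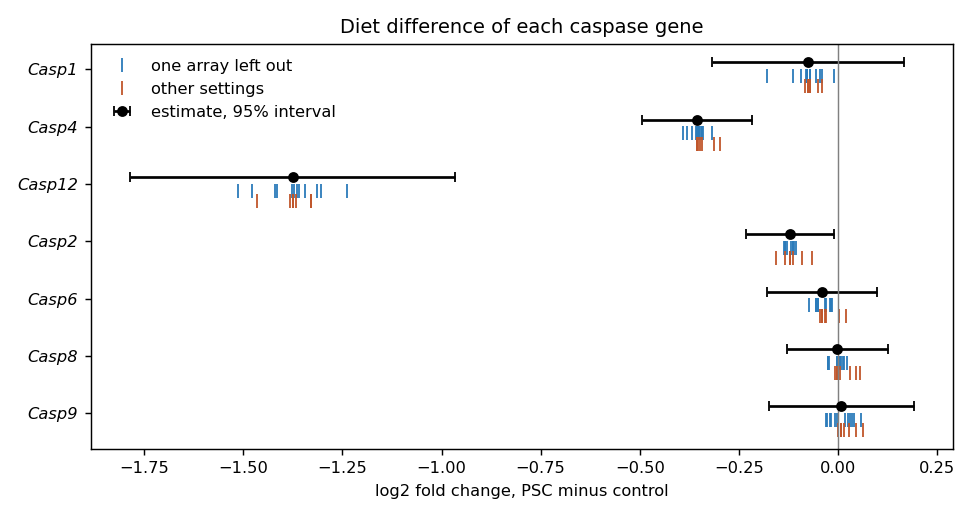
Log2 fold change of each caspase gene (horizontal axis, PSC minus control); black points with bars are the estimates with 95% intervals, blue ticks the values with 1 array left out and orange ticks those under the other settings. Casp12 lies at -1.38 and Casp4 at -0.36 with intervals below 0, and Casp6, Casp8 and Casp9 lie close to 0.

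As groups, the inflammatory members had a mean log2 fold change of -0.60 and the apoptotic members of -0.04, a difference of -0.56. This is a description, since the members were chosen with earlier results known, and no test was made of it. After each gene was centred over the 12 arrays, the inflammatory mean minus the apoptotic mean lay between 0.19 and 0.42 in controls. In PSC-fed rats it lay between -0.48 and -0.23 in all but replicate 4, which was at 0.03. No PSC array reached the controls. The group value rests on Casp12: without it, the inflammatory members had a mean log2 fold change of -0.22, and the diets overlapped, with controls from -0.16 to 0.31 and PSC arrays from -0.22 to -0.03. Casp14, a caspase of skin that belongs to neither group and is no member, did not pass, at 3.46 ± 0.17 with the control diet and 3.55 ± 0.16 with PSC (SD, n = 6).

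The 3 inflammatory genes are neighbours. In the RefSeq gene table they stand side by side on rat chromosome 8 in the order Casp1, Casp4, Casp12, with 1 unmeasured non-coding gene between Casp4 and Casp12 and 1 within Casp1's span. Along that order the log2 fold changes were -0.08, -0.36 and -1.38. The next measured genes on either side did not pass. Gria4, a glutamate receptor gene beyond Casp1 with 8 unmeasured genes between, had 0.22 (SE 0.06, adjusted p = 0.0737, limma). Pdgfd, a growth factor gene beyond Casp12 with 6 unmeasured genes between, had -0.17 (SE 0.09, adjusted p = 0.318, limma). The genes directly beyond Casp12 were therefore not measured, while on the other side Casp1 itself, next to Casp4, did not pass. Of the apoptotic members, Casp8 has Cflar, which encodes its inhibitor c-FLIP, as a measured neighbour with 1 unmeasured gene between, and Cflar had -0.03 (SE 0.09). The other measured neighbours of apoptotic members (Tmem139 and Clcn1 beside Casp2, Pla2g12a and Mcub beside Casp6, Flacc1 beside Casp8, Dnajc16 and Cela2a beside Casp9) had values between -0.16 and 0.26, and none passed the test.

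**Figure D3:**
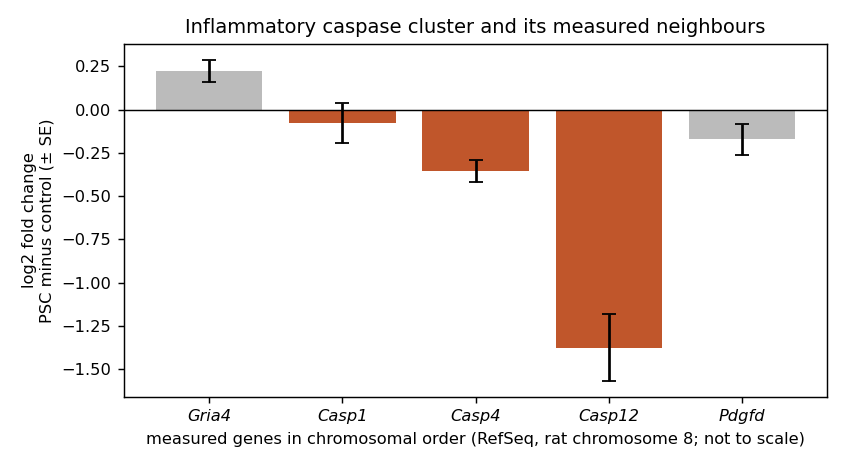
Log2 fold change (vertical axis, PSC minus control, bars ± SE) of the measured genes around the inflammatory caspases on rat chromosome 8, in their order along the chromosome and not to scale; orange, caspases, and grey, neighbours. The value goes from -0.08 at Casp1 over -0.36 at Casp4 to -1.38 at Casp12. Between Gria4 and Casp1 lie 8 unmeasured genes, and between Casp12 and Pdgfd 6.

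The start regions of the outer genes of this cluster are shown because both carry the same interferon-type sequence, while Casp12 passed the test and Casp1 did not. RefSeq promoter windows of the assembly GRCr8, from 250 bases before to 50 bases after the start site, were matched for 5 of the 7 members, and Casp4 and Casp8 were not searched. Capitals mark the match to the core of the interferon-stimulated response element, which is GAAA and GAAA with any 2 bases between them and on the printed strand reads TTTC, 2 bases, TTTC. The Casp1 window is chr8:10872580-10872879 and the Casp12 window chr8:10926938-10927237, both on the plus strand. RefSeq also places the start of other Casp1 transcripts upstream of this window.
Casp1: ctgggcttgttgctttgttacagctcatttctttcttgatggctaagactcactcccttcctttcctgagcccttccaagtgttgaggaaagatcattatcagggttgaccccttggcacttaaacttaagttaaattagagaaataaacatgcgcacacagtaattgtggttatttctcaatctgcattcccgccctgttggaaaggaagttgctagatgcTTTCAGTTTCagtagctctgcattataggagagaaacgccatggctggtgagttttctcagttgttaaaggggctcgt
Casp12: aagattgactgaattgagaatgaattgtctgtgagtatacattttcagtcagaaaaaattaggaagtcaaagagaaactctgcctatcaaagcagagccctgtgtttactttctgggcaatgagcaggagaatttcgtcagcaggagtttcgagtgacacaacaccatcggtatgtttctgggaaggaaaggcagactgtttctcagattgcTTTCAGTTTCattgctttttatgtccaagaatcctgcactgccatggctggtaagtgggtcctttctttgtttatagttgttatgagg

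The matched letters, TTTCAGTTTC, were the same in both, and ended 18 bases before the start site of Casp1 and 28 bases before that of Casp12. On either strand, this core was found in 3.77% of 27457 rat promoter windows of this length, and in none of the windows of Casp2, Casp6 and Casp9. The longest run that the Casp1 and Casp12 windows share, TGCTTTCAGTTTCA, contains it and has 14 bases. It occurred in 1 other window, that of the non-coding gene LOC102557277, which runs in the opposite direction from Casp12 and shares 276 bases with its window. The STAT dimer site TTCNNNGAA (8.68% of all windows) was matched in Casp12 alone of the 5, and overlaps none of the letters above, and the TATA box TATAAA (14.3%) was matched there on the minus strand, after the start site. An NF-kB site (GGG and TTTCC with 2 bases between, 1.51% of all windows), an AP-1 site (TGANTCA, 7.33%), a C/EBP site (TTGCNNCAA, 2.11%) and the endoplasmic reticulum stress element (CCAAT and CCACG with 9 bases between, 0.0765%) were matched in none of the 5 on either strand. These are matches of letters, and binding was not measured.

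Genes that act with the caspases were described through 8 lists, which hold 140 genes of which 126 were measured. In these lists 8 genes fell and none rose (limma, adjusted p below 0.05; 2.60% of all genes were called in either direction). Each list had 2 such genes or fewer. The median log2 fold change over all genes was 0.01.

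Around the inflammatory caspases, 1 of 22 measured inflammasome and pyroptosis genes fell, and the list had a median of 0.04. This was Gbp5, a guanylate-binding protein gene induced by interferon that promotes inflammasome assembly. It ran from 7.17 over 8.02 to 8.73 in controls and from 6.07 over 6.87 to 7.84 in PSC-fed rats, with a difference of -1.18 (SE 0.28, adjusted p = 0.0394, limma). The diets overlapped, with 5 of 6 PSC arrays below every control, and with 1 array left out Gbp5 passed in 2 of 12 fits (those without control replicate 2 or PSC replicate 4). The genes just downstream of the inflammatory caspases did not pass: Il1b had 0.01, Il18 0.18 and Gsdmd, which encodes the pore-forming gasdermin D, -0.06. The sensor gene Nlrp3 had 0.03 and the adaptor gene Pycard 0.17. Il1b and Nlrp3 were of low signal, at percentiles 38.7 and 36.3 of all genes by mean signal. Such values near 0 do not show equal levels.

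Of 14 measured interferon signalling genes 1 fell and the median was -0.02. Ifngr2, a chain of the interferon gamma receptor, went from 7.56 ± 0.13 to 7.15 ± 0.18 (SD, n = 6), or by -0.41 (SE 0.09, adjusted p = 0.0267, limma). Its partner chain gene Ifngr1 had -0.19 and the interferon regulatory factor gene Irf1 -0.11, and neither passed. Of the 14 genes 7 had negative and 7 positive values. The highest was that of Irf8, another interferon regulatory factor gene, at 0.20 (adjusted p = 0.261, limma). Ifngr2 no longer passed in 6 of 12 leave-one-out fits (those without control replicates 1, 4 and 6, PSC replicates 1, 5 and 6). In the unfolded protein response, 1 of 25 genes fell, with a median of -0.10: Dnajb9, a chaperone gene of the endoplasmic reticulum, went from 7.86 ± 0.22 to 7.41 ± 0.17, by -0.46 (SE 0.10, adjusted p = 0.0344, limma), and no longer passed in the same 6 fits. Ddit3, which encodes the stress-induced death factor CHOP, had -0.04. At unadjusted p below 0.05 this list had 5 genes lower and 3 higher (19.1% of all genes in either direction). Its highest value was that of Sdf2l1, 0.37 (adjusted p = 0.169, limma).

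Around Casp8, 2 of 19 death receptor genes fell, with a list median of -0.05. Fas, a death receptor gene, ran from 6.47 over 6.76 to 6.96 in controls and from 6.12 over 6.24 to 6.42 in PSC-fed rats. All 6 PSC arrays were below every control, the log2 fold change was -0.50 (SE 0.09, adjusted p = 0.0133, limma), and Fas passed in each of the 12 leave-one-out fits. Tnfrsf10b, the receptor gene for the death ligand TRAIL, went from 5.76 ± 0.11 to 5.40 ± 0.16, or by -0.36 (SE 0.08, adjusted p = 0.0293, limma). It no longer passed in 7 of the 12 fits (those without control replicates 1, 4, 5 and 6, PSC replicates 1, 5 and 6). The gene of that ligand, Tnfsf10, had -0.42 (adjusted p = 0.0527, limma), and the adaptor gene Fadd -0.05. The ligand gene of Fas, Faslg, went the other way, at 0.29 (adjusted p = 0.08, limma). Faslg was dim, with means of 3.71 in controls and 4.00 in PSC-fed rats (percentile 23.0 of all genes by mean signal). In Faslg 5 of 6 PSC arrays were above every control, and it did not pass.

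Around Casp9, 0 of 15 measured genes of the Bcl2 family and the apoptosome passed (limma; at unadjusted p below 0.05 there were 2 lower and 1 higher; median -0.03). Those with the smallest p were Bcl2l11, a pro-death gene also called Bim, at -0.32 (adjusted p = 0.0951), and the pro-death gene Bmf at 0.23 (adjusted p = 0.127, limma). Apaf1, which builds the apoptosome, had -0.12. Among inhibitors of apoptosis and their antagonists, 1 of 8 fell (median -0.03): Birc3, which encodes cIAP2, went from 6.03 ± 0.18 to 5.67 ± 0.15, by -0.36 (SE 0.09, adjusted p = 0.0454, limma), and it passed in 3 of the 12 fits (without control replicate 2, control replicate 3 or PSC replicate 3). Xiap, which encodes the direct inhibitor of caspases, had 0.19.

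Around Casp2, 1 of 11 measured genes of p53 and the PIDDosome fell, with a median of -0.19, and 10 of the 11 had negative values. Values were negative in 8383 of all 18166 genes, in 19 of 25 unfolded protein response genes and in 14 of 19 death receptor genes. Cdkn1a, which encodes the cell cycle inhibitor p21, ran from 7.57 over 7.85 to 8.26 in controls and from 6.23 over 6.94 to 7.43 in PSC-fed rats. The diets did not overlap, and the log2 fold change was -0.94 (SE 0.19, adjusted p = 0.0206, limma), and it no longer passed without control replicate 1 (adjusted p = 0.056). The p53 target genes Zmat3 and Mdm2 had -0.25 and -0.19, the PIDDosome genes Cradd and Pidd1 -0.22 and 0.06, and none of these passed. Of 12 genes of proteins cut in the execution phase 1 fell (median -0.03): Sptan1, which encodes alpha-II spectrin, went from 9.05 ± 0.12 to 8.58 ± 0.29, by -0.48 (SE 0.12, adjusted p = 0.0426, limma). It passed in 3 of the 12 fits (without control replicate 5, PSC replicate 2 or PSC replicate 4).

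**Figure D4:**
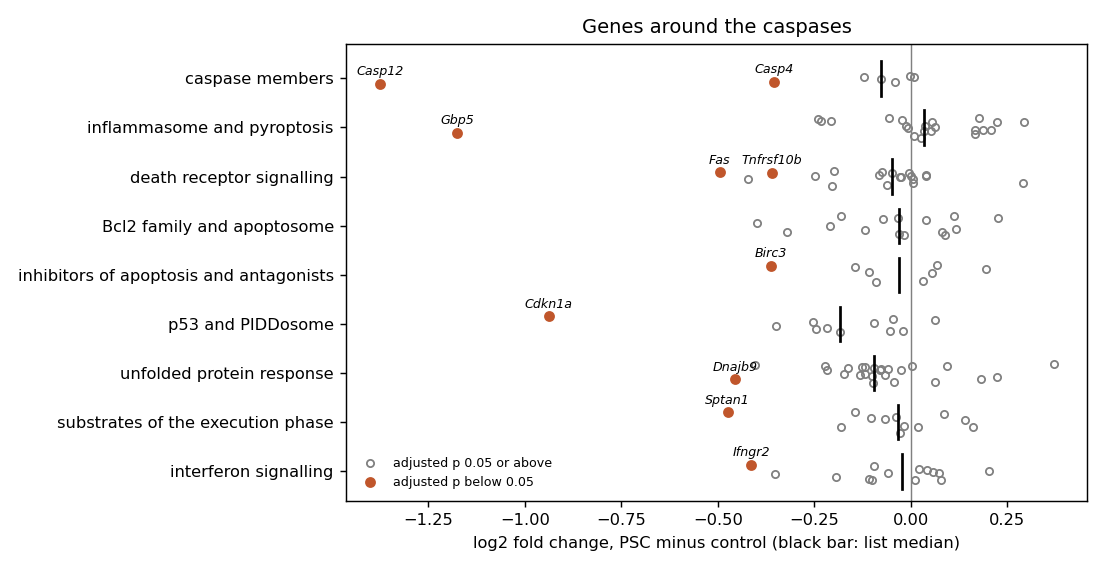
Log2 fold change (horizontal axis, PSC minus control) of every measured gene in 8 pathway lists and of the 7 caspase genes; filled orange points passed adjusted p below 0.05, open points did not, and black bars are list medians (points are spread vertically for sight). The called genes, named in the plot, all lie below 0, and list medians lie between -0.19 and 0.04.

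Markers of other liver cell types also differed between the diets. Of 12 measured markers of stellate cells and fibroblasts 6 fell and 0 rose (limma; over all genes 1.89% were called lower and 0.716% higher; median -0.42, and 0 of 12 positive), among them Dcn, which encodes decorin, at -0.88 and Mmp2, a gelatinase gene, at -0.65. Col1a2, Col3a1, Tagln and Rgs5 were the others that fell. Lrat, Des and Pdgfrb, at -0.20, -0.20 and -0.08, were among those that did not pass (adjusted p = 0.30, 0.23 and 0.72, limma). The mean centred score of all 12 markers lay between 0.088 and 0.389 in controls and between -0.309 and 0.084 in PSC-fed rats. PSC replicate 4 had the highest score of its diet, and also the highest Casp12 and Casp4 values of its diet. On the first principal component over all genes, too, this array lay nearest to the controls. Of 18 macrophage and Kupffer cell markers 1 rose and 0 fell (9 higher and 2 lower at unadjusted p below 0.05, as against 19.1% of all genes in either direction; median 0.30), with scores from -0.512 to 0.066 in controls and from -0.012 to 0.296 in PSC-fed rats. Of 15 lymphocyte and NK cell markers 1 rose (7 higher and 0 lower at unadjusted p below 0.05; median 0.11). Of 12 neutrophil markers 0 passed (limma; 1 lower and 0 higher at unadjusted p below 0.05; median -0.04), and likewise 0 of 7 endothelial markers (1 lower and 2 higher; median -0.09). Of 6 bile duct cell markers 1 fell, Spp1, which encodes osteopontin (median -0.03), and 0 of 5 red cell markers passed (limma; 2 lower and 0 higher at unadjusted p below 0.05; median -0.23). Correlations with the stellate score are given next, but what share of the caspase values comes from these cells was not tested.

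Casp4 correlated with the stellate marker score among the controls themselves. Over the 6 controls Pearson's r was 0.99 (exact permutation p = 0.00139, the smallest the 720 orders can give, adjusted p = 0.0194) and Spearman's rho 1 (exact p = 0.00278, adjusted p = 0.0389). Without the 2 controls farthest from the median score, replicates 1 and 2, r was 0.96. Among the 6 PSC arrays r was 0.91 (exact permutation p = 0.153, adjusted p = 0.428) and rho 0.24 (exact p = 0.672, adjusted p = 0.994). Without the 2 PSC arrays farthest from the median score, replicates 2 and 4, r was -0.03. Only replicate 4 was high in both, with a score of 0.084 and a Casp4 signal of 6.40. Replicate 2, at a score of -0.267, had the lowest Casp4 signal of its diet, 6.21. For Casp12, r was 0.81 in controls (exact permutation p = 0.0611, adjusted p = 0.285) and 0.70 in PSC arrays (exact permutation p = 0.025, adjusted p = 0.175), and -0.13 and -0.25 without the 2 farthest arrays of each diet. Spearman's coefficient for Casp12 was 0.54 in controls and 0.75 in PSC arrays (exact permutation p = 0.297 and 0.0944, adjusted p = 0.994 and 0.661). These are 2 of 7 members in a family of 14 relations, adjusted together, of which 1 passed. Of the other members, Casp6 had r = -0.72 in PSC arrays (exact permutation p = 0.0889, adjusted p = 0.311). Casp9 had r = 0.62 in controls (exact permutation p = 0.192, adjusted p = 0.447). Without the 2 farthest arrays these were -0.22 and 0.18. The relations were chosen for testing after the values were plotted. The adjustment does not cover the choice of this score among the 8 marker lists. Scores of the other cell types were not tested against the caspases, so that the relation cannot be called particular to stellate markers.

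**Figure D5:**
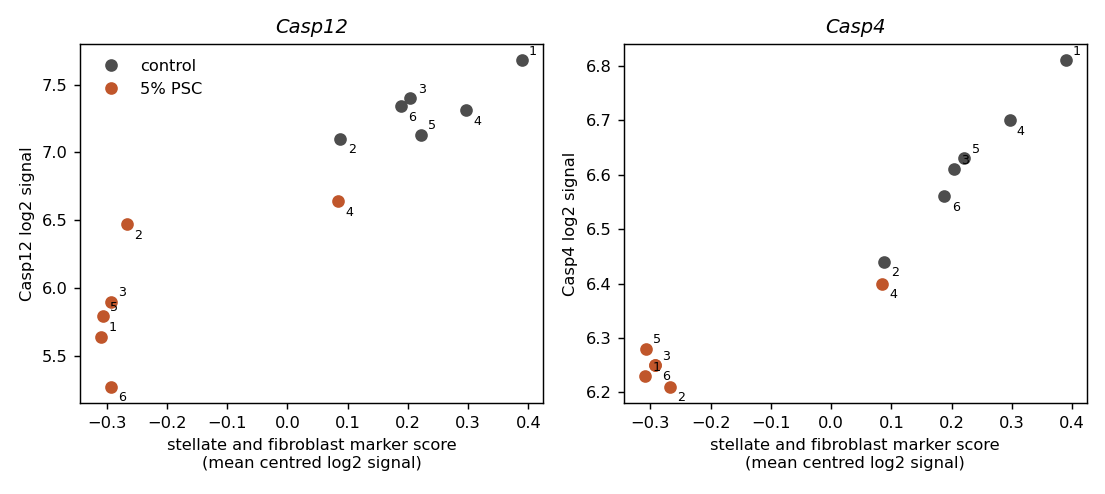
Casp12 (left) and Casp4 (right) log2 signal (vertical axes) against the mean centred log2 signal of 12 stellate cell and fibroblast markers (horizontal axes); points are rats, numbered by replicate. PSC replicate 4, at 0.084, has the highest score of its diet. On the first principal component over all genes it also lay nearest to the controls.

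No pair of caspase genes passed a test for varying together from rat to rat. After removal of the diet means, 0 of 21 pairs of members correlated at adjusted p below 0.05 (permutation within diets, 100000 resamples), and 1 pair did at unadjusted p below 0.05. This was Casp4 with Casp12, with r = 0.47 (permutation p = 0.0474, adjusted p = 0.647), rho = 0.37 (permutation p = 0.21, adjusted p = 0.972) and r = 0.37 without control replicates 1 and 2. The largest r in size was that of Casp12 with Casp8, -0.66 (permutation p = 0.0616, adjusted p = 0.647), with rho = -0.61 (permutation p = 0.0653, adjusted p = 0.972) and r = -0.45 without PSC replicates 4 and 6.

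The genes most like a member, by Pearson's r of values with the diet means removed over 12 arrays, are given as a description. For Casp12 these were Nid1, which encodes the basement membrane protein nidogen-1 (r = 0.94), Marveld2, which encodes the junction protein tricellulin (r = 0.93), and Wars2, a mitochondrial tryptophanyl-tRNA synthetase gene (r = 0.93). Their log2 fold changes, -0.36, -0.41 and -0.34, were of the same sign as that of Casp12 and did not pass the test. For Casp4 they were the amino acid transporter gene Slc38a1 (r = 0.93), the orphan nuclear receptor gene Nr4a1 (r = 0.91) and the chromatin remodeller gene Pbrm1 (r = 0.90), with log2 fold changes of 0.02, -0.38 and -0.12. For Casp1 the first was Bloc1s6 (r = 0.95), for Casp2 Dnajc6 (r = 0.96), for Casp6 Mael (r = 0.91), for Casp8 Ubcl1 (r = 0.95) and for Casp9 Abhd15 (r = 0.88). With 18166 genes compared on 12 arrays, values of this height are the ends of a long list, and no gene was among the first 3 for more than 1 member.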

How the data were processed

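Liver RNA of 12 rats was measured on 12 arrays. Per the submitters' processing notes, the authors used Affymetrix Expression Console and RMA. The table they deposited gives a log2 signal for each transcript cluster. RMA equalises the arrays and compresses small changes of dim genes. Tool versions and filters: not given in the sources used here. Of 30347 clusters, 18511 have 1 gene symbol, 575 several and 11261 none in the platform annotation; the brightest cluster stood for each of 18166 genes. Groups came from sample titles. Diets were compared with limma 3.58.1 (R 4.3.3) and a two-sided threshold of 0.05 on p-values adjusted by Benjamini-Hochberg over all 18166 genes. On simulated data for this comparison, with 18166 genes, 71% of 100 genes changed by 0.5 and 99% of 100 changed by 1 on the log2 scale were recovered, and 7.10% of calls were false. The number of arrays limits the precision. Figures were drawn with matplotlib 3.10.9.

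The caspase members, gene lists and tests were chosen with earlier results of these data known. Named genes are all members, up to 4 called genes of each list (or the 2 with the smallest p), the 3 genes most like each member and the measured neighbours. Other genes were named after their values were seen, for their role beside a caspase. Promoter windows are RefSeq's for GRCr8, which need not be the build of the array. Alternatives were all clusters, a filter on dim genes, 3 other normalizations, another variance prior, weights per array, a block for the replicate number, means of clusters, a threshold of 0.1, leaving out PSC replicates 2 and 5 and leaving out each array. Some genes are not reported here.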

Additional observations from a re-analysis of the deposited data

Results flagged for a closer look

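Of 16 groups of 6 arrays checked for a single array that stands apart (the 7 members and the inflammatory minus apoptotic mean, in each diet), 1 was marked, where chance marks about 1 in 20. In PSC-fed rats, replicate 4 had the highest Casp4 log2 signal, 6.40, and its gap to the next array was 0.632 of the range of the 6 arrays, above the critical value of 0.625. Without this array the log2 fold change of Casp4 was -0.38 (adjusted p = 0.00821, limma).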

How the results depend on the processing

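The calls of Casp12 and Casp4 held under all alternatives but 1. With the replicate number as a replicate block, Casp4 kept its log2 fold change of -0.36 but had an adjusted p of 0.0504, and Casp12 an adjusted p of 0.0217. The numbers do not pair the rats (correlations of same-numbered deviations from -0.15 to 0.11). Over all alternatives except single arrays, adjusted p ran from 0.00263 to 0.0217 for Casp12 and from 0.00803 to 0.0504 for Casp4 (limma). With 1 array left out, log2 fold changes ran from -1.51 to -1.24 for Casp12, -0.39 to -0.32 for Casp4, -0.18 to -0.0093 for Casp1, -0.14 to -0.11 for Casp2, -0.07 to -0.02 for Casp6, -0.0267 to 0.0213 for Casp8 and -0.03 to 0.0563 for Casp9.

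Values near 0 changed sign and stayed uncalled. Casp6 had 0.0205 with quantile normalization repeated and 0.0015 with cyclic loess. Casp8 had 0.0544 and 0.044 under these, 0.005 with median centring and 0.0308 without PSC replicates 2 and 5. The inflammatory minus apoptotic difference stayed between -0.63 and -0.52.

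Counts over all genes moved. Lower and higher genes numbered 198 and 56 with all clusters, 78 and 16 with the replicate block, 166 and 59 without PSC replicates 2 and 5, and 738 and 402 at a threshold of 0.1, and lower genes 539 with the dim genes removed. Without 1 array they ran from 113 to 543 and from 29 to 192, against 343 and 130 with all arrays. The lower count moved by over 1.5 times without control replicate 1 (113), 3 (194), 4 (126), 5 (221) or 6 (139), or PSC replicate 1 (139), 4 (543), 5 (159) or 6 (126).

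The lists hold 0 to 2 called genes each, so that 1 gene moves a count. With the replicate block the count was 0 for death receptors, inhibitors of apoptosis, p53, the unfolded protein response, execution substrates and interferon signalling. With all clusters it was 0 for inflammasome, inhibitors, unfolded protein response and substrates, and 1 for death receptors. Without PSC replicates 2 and 5 it was 0 for inflammasome, inhibitors, unfolded protein response and interferon signalling, and 1 for death receptors. At a threshold of 0.1 it was 2 for inflammasome and the unfolded protein response, 4 for death receptors and 1 for the Bcl2 family. It was 2 for inflammasome with the dim genes removed, 0 for inhibitors with quantile normalization repeated, and 0 for inhibitors and substrates with cyclic loess. Without 1 array the counts ran from 0 to 1, for the unfolded protein response from 0 to 2 and for death receptors from 1 to 3. The cause of these moves was not tested.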
